A study of Neurospora crassa with 16 samples.

Results

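The genes examined here were the 7 chitin synthase genes of the filamentous fungus Neurospora crassa, chs-1 to chs-7, and fks, the gene of the catalytic subunit of beta-1,3-glucan synthase, which RefSeq lists as do. They were chosen by locus tag, 8 of the 9730 genes in the deposited tables. The study compared transcripts of mutants lacking epr-1, which encodes a reader protein with a BAH and a PHD domain, or set-7, which encodes the methyltransferase that writes H3K27 methylation, with those of wild type. The ∆epr-1 poly(A) libraries came from 2 mutant strains, both carrying the ∆epr-1::hph allele in which a hygromycin resistance gene replaces epr-1, with replicate 1 (N7491) of mating type mat a and replicate 2 (N7479) of mat A. Their cultures were shaken for 16 h at 32 °C in sucrose minimal medium and are labelled as germinated conidia. The ∆set-7 libraries (column headers N4730 and N4718) and the wild-type libraries (both headed N3752) came from an earlier series, so the 2 ∆epr-1 libraries are the ones shown singly and the other genotypes enter through the authors' 3 comparison tables. The sources used here do not give the full genotypes of those strains.

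The fungal cell wall is built outside the plasma membrane from chitin, beta-1,3-glucan and glycoproteins. Chitin synthases are membrane enzymes that polymerise N-acetylglucosamine. They travel in small vesicles, the chitosomes, to the core of the Spitzenkörper at the hyphal tip and to forming septa. The glucan synthase polymerises glucose, and its subunits gather in the outer layer of the Spitzenkörper. Filamentous fungi hold chitin synthases of classes I to VII, 1 of each in this set. The proteins CHS-3, CHS-2 and CHS-1 belong to classes I, II and III, CHS-4 to class IV, and CHS-5, CHS-7 and CHS-6 to classes V, VII and VI. CHS-5 and CHS-7 carry a myosin motor-like domain ahead of the synthase domain.

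Sequencing depth was similar in the 2 ∆epr-1 libraries, with 10434667 reads in genes in replicate 1 and 10562443 in replicate 2. The deleted gene epr-1 (NCU07505) had 60 reads in replicate 1 and 53 in replicate 2, and the mating-type gene matA-1 had 0 in replicate 1 and 62 in replicate 2. In the authors' deposited tables epr-1 had a log2 fold of -2.33 in ∆epr-1 over wild type (adjusted p = 2.76e-21), and set-7 had -1.65 in ∆set-7 over wild type (adjusted p = 0.0460). All 3 hyphal markers looked up (hex-1, so and pma-1) and all 7 conidiation markers had reads in both ∆epr-1 libraries. The conidiation markers summed to 46569 and 48159 normalized counts per kilobase in replicates 1 and 2, and the hyphal markers to 22545 and 19745. Most of each sum came from 1 gene, ccg-13 (32368 and 37251) for conidiation and hex-1 (16729 and 14063) for hyphae. The sums thus do not weigh conidial against hyphal transcripts. Among these 10 markers the hydrophobin gene eas had the largest ratio between the libraries, with 13576 and 3973 normalized counts. Of the 7 conidiation markers, 2 rose and 2 fell in ∆epr-1 over wild type, and 1 rose and 3 fell in ∆set-7 over wild type, in the authors' deposited tables. Over all tested genes 47.8% were called in ∆epr-1 and 21.8% in ∆set-7, so counts among so few markers are not read as a result. Of the 3 hyphal markers, so rose in ∆epr-1 over wild type (0.69, adjusted p = 5.75e-08) and hex-1 fell in ∆set-7 over wild type (-0.40, adjusted p = 0.00965), in the authors' deposited tables. The part of these markers in the results below was not tested. The ∆epr-1 libraries belong to another series than the libraries they were compared with, so series and genotype cannot be told apart. The count of ambiguous reads also differed, with -0.87 on the log2 scale in ∆epr-1 over wild type (adjusted p = 3.14e-17) and was not called in ∆set-7 over wild type (-0.19, adjusted p = 0.165), in the authors' deposited tables. Unmapped reads likewise had -0.84 in ∆epr-1 over wild type (adjusted p = 6.26e-06), -0.43 in ∆set-7 over wild type (adjusted p = 0.0568) and -0.41 in ∆epr-1 over ∆set-7 (adjusted p = 0.0397), in the authors' deposited tables.

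The glucan synthase gene was the most abundant transcript of the set in ∆epr-1, and the chitin synthases spanned a wide range below it. Levels are DESeq2-normalized counts per kilobase of gene, with gene lengths from RefSeq (NC12), which include introns. The fks gene had 2921 in replicate 1 and 2603 in replicate 2 on this scale, at percentiles 98.3 and 97.6 of all genes. The chs-7 gene had 915 and 894, chs-1 had 922 and 818, and chs-5 had 703 and 744. Those 3 genes lay close together, with chs-5 below the others in both libraries. The order of chs-7 and chs-1 differed between the libraries, so the levels of chs-7 and chs-1 were not separated beyond the spread of the 2 libraries. The class IV gene chs-4 had 338 and 276, and chs-3 had 317 and 266. Their ranges overlap, with chs-4 above chs-3 within each library. The chs-2 gene was lower, with 79.0 and 71.1, and chs-6 was the lowest, with 4.58 and 4.48 at percentiles 15.1 and 14.9. The motor-domain genes chs-5 and chs-7 together made up 49.4% and 53.3% of the summed chitin synthase level in replicates 1 and 2, and the ratio of fks to that sum was 0.891 and 0.847.

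**Figure D1:**
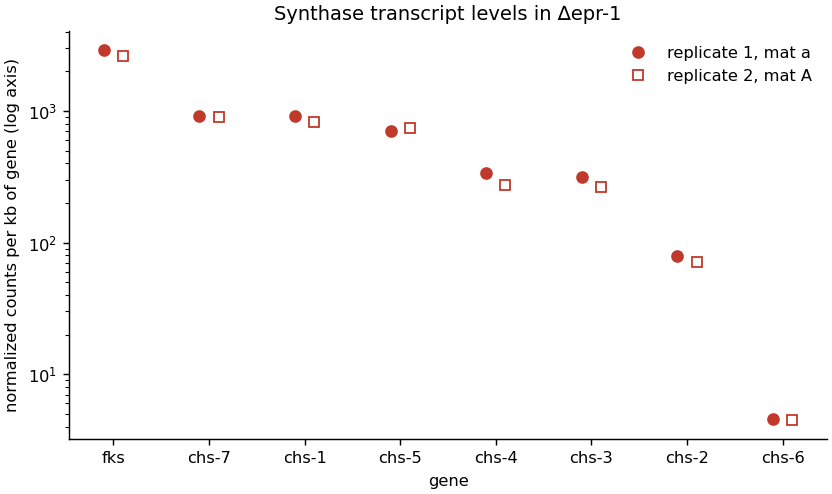
Transcript levels of the 8 synthase genes in the 2 ∆epr-1 libraries, as normalized counts per kilobase of gene on a log axis (filled circles, replicate 1, mat a; open squares, replicate 2, mat A). fks sits at 2603 to 2921, chs-7, chs-1 and chs-5 between 703 and 922, and chs-6 near 4.5.

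The 2 ∆epr-1 libraries gave like values for each gene. The log2 ratio of replicate 1 to replicate 2 ran from -0.08 for chs-5 to 0.29 for chs-4. Genes of like level (within 2-fold of the mean) had an SD of that ratio of 0.27 around chs-5 and 0.23 around chs-4, and 13.9% of the genes around chs-4 had a ratio farther from 0. The chs-6 gene rested on 17 reads (95% Poisson interval 9.90 to 27.2) and 16 reads (9.15 to 26.0), while each other gene had at least 424. These intervals cover counting error only.

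Deletion of epr-1 went with lower transcripts of both motor-domain chitin synthases and higher transcripts of chs-1, chs-2 and chs-3. The levels of chs-5 and chs-7 were 29.4% and 33.5% of wild type, and of the raised genes chs-2 had the largest fold, 2.77, in the authors' deposited table. The class IV and class VI genes and the glucan synthase gene did not pass the test. In all, the authors' deposited table called 3 of the 8 up and 2 down, with the Wald test of DESeq2 and a threshold of 0.05 on the p adjusted by Benjamini-Hochberg over all tested genes. Of 8624 genes tested, 47.8% were called, 23.3% up and 24.5% down, so the calls among 8 genes are not read as a property of the set. Where the mean reached 1000 normalized counts 71.2% of genes were called, and 3 of the 5 synthase genes at such means were. The median log2 fold of the 8 was -0.09, against 0.00 over all tested genes.

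The class V gene chs-5 (NCU04352) had 4766 and 5042 normalized counts in ∆epr-1 replicates 1 and 2. The authors' deposited table gave it a log2 fold over wild type of -1.77 (adjusted p = 2.68e-84, SE 0.09). The class VII gene chs-7 (NCU04350) had 5943 and 5804 normalized counts in ∆epr-1. For this gene the authors' deposited table had -1.58 (adjusted p = 2.80e-74, SE 0.09). The 95% intervals of these folds, -1.94 to -1.59 for chs-5 and -1.74 to -1.41 for chs-7, overlap. A lower share of the cells that express a gene and less RNA per cell cannot be told apart in these bulk cultures.

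Of the genes that rose, chs-2 (NCU05239), of class II, had 400 and 360 normalized counts in ∆epr-1 and stood 1.47 above wild type on the log2 scale by the authors' deposited table (adjusted p = 4.34e-12, SE 0.20). With this rise chs-2 was still the second lowest of the set per kilobase. The class I gene chs-3 (NCU04251) had 1417 and 1190 normalized counts in ∆epr-1 and rose 1.93-fold by the authors' deposited table, a log2 fold of 0.95 (adjusted p = 1.42e-08, SE 0.16). The class III gene chs-1 (NCU03611) had 3947 and 3505 normalized counts in ∆epr-1 and rose 1.60-fold by the authors' deposited table, a log2 fold of 0.67 (adjusted p = 2.48e-08, SE 0.11). With either ∆epr-1 library left out, the smallest of these 3 folds was 0.59, for chs-1 without replicate 1. A p given below for such a value takes the spread from the deposited fit of all 6 libraries, the left-out one included, and assumes that the lone library varies like the rest.

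The remaining genes were not called in ∆epr-1 over wild type. The glucan synthase gene fks (NCU06871) had 22858 and 20368 normalized counts in ∆epr-1 and a log2 fold of 0.05 (95% interval -0.16 to 0.27) with an adjusted p of 0.719 by the authors' deposited table. Its sign turned without replicate 1 (-0.03). The class IV gene chs-4 (NCU09324) had 1578 and 1289 normalized counts in ∆epr-1 and a log2 fold of -0.33 (interval -0.64 to -0.02) with an adjusted p of 0.0750 by the authors' deposited table. Without replicate 1 it was called, at -0.48 (adjusted p = 0.0379), and without replicate 2 it stood at -0.19 (adjusted p = 0.458). For the class VI gene chs-6 (NCU05268), with 13.9 and 13.6 normalized counts, the log2 fold was -0.23 by the authors' deposited table (adjusted p = 0.750). Its interval spans 0.413 to 1.75 times the wild-type level, so a fall or a rise within that range is not excluded at this depth.

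**Figure D2:**
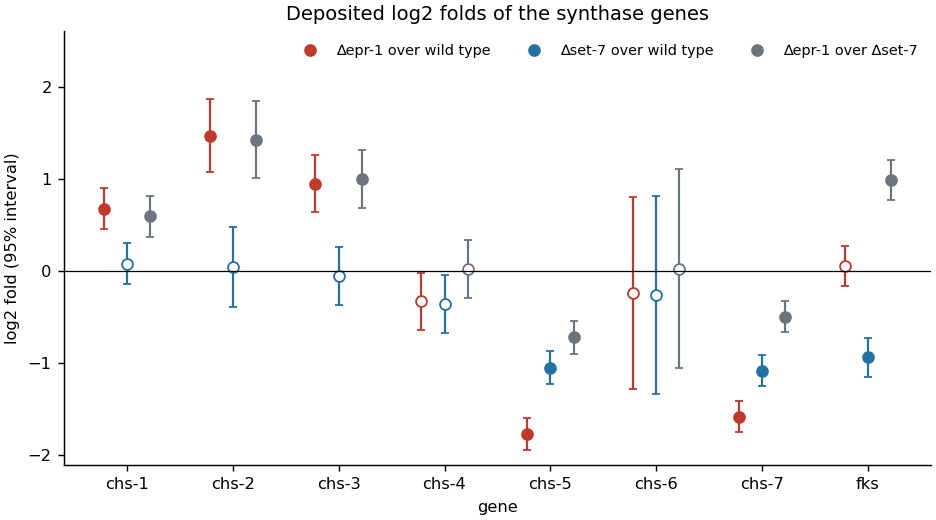
Deposited log2 folds of the 8 genes with their 95% intervals, for ∆epr-1 over wild type (red), ∆set-7 over wild type (blue) and ∆epr-1 over ∆set-7 (grey); filled points passed an adjusted p below 0.05. chs-5 and chs-7 lie below 0 in all 3, chs-1, chs-2 and chs-3 lie above 0 where ∆epr-1 enters, and fks lies below 0 in ∆set-7 alone.

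Deletion of set-7 went with lower transcripts of chs-5, chs-7 and fks, and no synthase gene rose. By the authors' deposited table the 3 genes stood at 48.4%, 47.3% and 52.2% of wild type. It called these 3 of 8 genes, all down, and 21.8% of 8254 tested genes, 10.3% up and 11.6% down. Where the mean reached 1000 normalized counts 36.6% of genes were called, and 3 of the 5 synthase genes at such means were. The median log2 fold of the 8 genes was -0.31, against 0.00 over all tested genes.

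In ∆set-7 over wild type the authors' deposited table gave chs-7 a log2 fold of -1.08 (adjusted p = 3.64e-34, SE 0.09). It gave chs-5 one of -1.05 (adjusted p = 2.66e-29, SE 0.09), so these folds differed by less than either standard error. The fall of fks was -0.94 (adjusted p = 1.39e-15, SE 0.11) by the authors' deposited table. The 3 genes that rose in ∆epr-1 stood near 0 in ∆set-7, with log2 folds of 0.08 for chs-1 (interval -0.14 to 0.31), 0.04 for chs-2 (-0.39 to 0.48) and -0.05 for chs-3 (-0.37 to 0.27) in the authors' deposited table. By the authors' deposited table chs-4 had -0.35 (interval -0.67 to -0.04) with an adjusted p of 0.100, and chs-6 had -0.26 (-1.33 to 0.81) with one of 0.811. No ∆set-7 library could be left out, since their single values were not used.

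Set directly against each other, the mutants differed in 6 of the 8 genes, 4 of them higher and 2 lower in ∆epr-1 than in ∆set-7. The authors' deposited table of this contrast called 45.9% of 8809 tested genes, 22.1% higher and 23.8% lower in ∆epr-1. Where the mean reached 1000 normalized counts it called 69.4%, and 4 of the 5 synthase genes at such means. The glucan synthase gene was 1.99-fold as high in ∆epr-1 as in ∆set-7, 0.99 on the log2 scale (adjusted p = 4.34e-18, SE 0.11), by the authors' deposited table. Also higher in ∆epr-1 were chs-2 with 1.42 (adjusted p = 2.06e-10, SE 0.21), chs-3 with 1.00 (adjusted p = 4.09e-09, SE 0.16) and chs-1 with 0.59 (adjusted p = 1.50e-06, SE 0.12), by the authors' deposited table. These 3 genes were thus called higher in ∆epr-1 against each of the other genotypes. Both motor-domain genes were lower in ∆epr-1 than in ∆set-7, chs-5 with -0.72 (adjusted p = 2.49e-14, SE 0.09) and chs-7 with -0.50 (adjusted p = 5.13e-08, SE 0.09), by the authors' deposited table. Their order over the genotypes was ∆epr-1 below ∆set-7 below wild type, with each step past the test. The chs-4 and chs-6 genes were not called (log2 folds 0.03 and 0.02, adjusted p = 0.921 and 0.980, in the authors' deposited table), with intervals of -0.29 to 0.34 and -1.05 to 1.10. Without ∆epr-1 replicate 1 the chs-4 fold was -0.13.

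By their calls in the authors' deposited tables the 8 genes made 4 groups. The pair chs-5 and chs-7 was lower in both mutants, chs-1, chs-2 and chs-3 were higher in ∆epr-1 and not called in ∆set-7, fks was lower in ∆set-7 and not called in ∆epr-1, and chs-4 and chs-6 were called in neither. For the 6 genes of the first 3 groups the direct contrast between the mutants passed the test. The comparisons with wild type share the wild-type libraries, so a low or high wild-type value would move both folds of a gene together. The direct contrast does not use them, but its fold is the difference of the folds over wild type. It reuses the libraries of both mutants, so a high or low value in a mutant would move it too. Hence it adds no separate support for the groups, and here too series and genotype cannot be told apart.

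**Figure D3:**
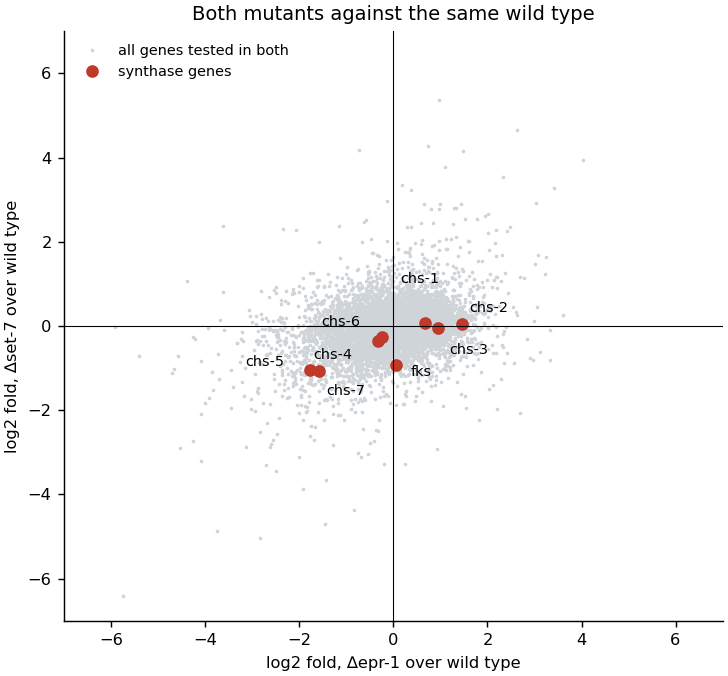
Log2 folds over wild type in ∆epr-1 (horizontal) and ∆set-7 (vertical) for 8254 genes tested in both (grey) and the 8 synthase genes (red); both axes share the same wild-type libraries. chs-5 and chs-7 lie together at the lower left, chs-1, chs-2 and chs-3 to the right near 0 on the vertical axis, and fks below 0 near 0 on the horizontal axis.

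The chs-5 and chs-7 genes are close neighbours. In RefSeq gene order they lie on chromosome IV with a single gene, NCU04351, between them, 566 or more genes from the nearer chromosome end. The other 6 genes lie on chromosomes I, IV, V and VII, from 90 (chs-2) to 955 (chs-4) genes from an end. The gene between the pair was nearly silent, with 4 and 10 reads in ∆epr-1 replicates 1 and 2. Its log2 fold was -1.97 in ∆epr-1 over wild type (SE 0.58, adjusted p = 0.00199) and -1.65 in ∆set-7 over wild type (SE 0.58, adjusted p = 0.0259), in the authors' deposited tables. Whether those few reads came from transcripts of the neighbouring genes was not tested.

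Neither gene flanking this stretch fell in both mutants. NCU11050, next to chs-5, had 3616 and 3472 normalized counts in ∆epr-1. Its log2 fold over wild type was 0.91 in ∆epr-1 (adjusted p = 4.88e-12) and -1.27 in ∆set-7 (adjusted p = 3.74e-20), by the authors' deposited tables. Its direct difference, 2.18 higher in ∆epr-1 than in ∆set-7, had an adjusted p of 4.68e-60 in the authors' deposited table. On the other side stk-58 rose in both mutants, by 0.35 in ∆epr-1 (adjusted p = 0.0176) and by 0.68 in ∆set-7 (adjusted p = 6.80e-06), in the authors' deposited tables. Beside the genes that rose in ∆epr-1, 1 of 6 flanking genes rose there, NCU03610 next to chs-1 with 0.52 (adjusted p = 0.00302), and 3 fell, NCU03613 next to chs-1 (-0.36), cys-4 next to chs-2 (-0.47) and NCU04249 next to chs-3 (-0.34), in the authors' deposited table. Beside chs-2 and chs-3, NCU05240 (-0.30) and NCU04252 (-0.05) were not called in ∆epr-1, in the authors' deposited table. Over all tested genes 23.3% rose and 24.5% fell in ∆epr-1, so these counts among 6 genes are not read as a local result. Next to chs-6, hsp88 rose in ∆epr-1 with 0.58 (adjusted p = 7.04e-07), while NCU05267 (-0.07) was not called, in the authors' deposited table. Next to chs-4 the authors' deposited table had NCU09325 at -0.20 in ∆epr-1, not called, and NCU09323 without an adjusted p. Both genes flanking fks were not called in any comparison for which they had an adjusted p.

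**Figure D4:**
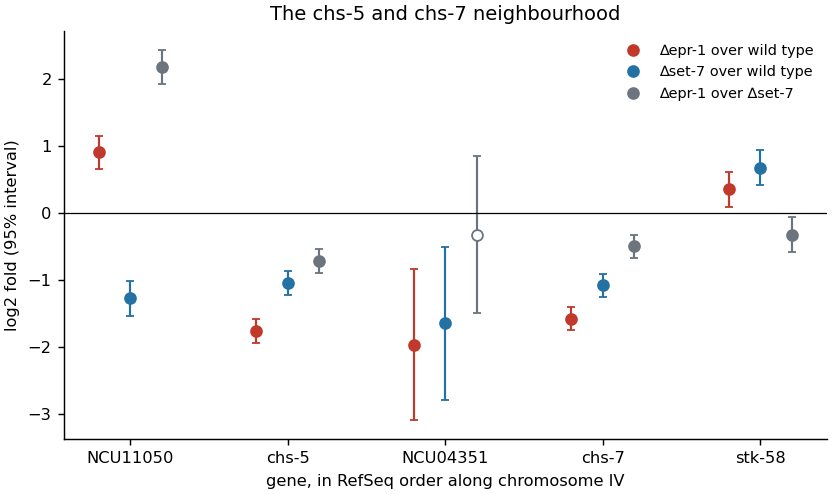
Log2 folds with 95% intervals of 5 consecutive genes in RefSeq order on chromosome IV, for ∆epr-1 over wild type (red), ∆set-7 over wild type (blue) and ∆epr-1 over ∆set-7 (grey); filled points passed an adjusted p below 0.05. chs-5, NCU04351 and chs-7 lie below 0 in both mutants, NCU11050 is raised in ∆epr-1 and lowered in ∆set-7, and stk-58 is raised in both.

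Genes with the pair of folds most like that of chs-5 were looked for among 989 genes with a symbol and a mean of at least 100 normalized counts, by Euclidean distance over the 2 log2 folds against wild type. Nearest was csp-1 (distance 0.13), the conidial separation regulator, with -1.74 in ∆epr-1 and -0.92 in ∆set-7, followed by the clock-controlled gene ccg-15 (0.17) and chs-7 (0.19), in the authors' deposited tables. For fks the nearest were gh13-6 (0.17), prk-3 (0.21) and the opsin gene nop-1 (0.22), with folds of -0.77, -0.78 and -0.74 in ∆set-7 in the authors' deposited table. These distances rest on 2 folds with a shared wild type and describe likeness of values only.

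The other enzymes that act on chitin moved in both directions. Of 10 genes of chitin hydrolysis, glycoside hydrolase family 18 and chit-1, 9 were tested. In ∆epr-1 over wild type 4 rose and 2 fell, with a list median of 0.38 on the log2 scale, in the authors' deposited table, where 47.8% of all tested genes were called. Those with the highest folds were gh18-5 (1.61, adjusted p = 3.57e-11), gh18-3 (1.31, adjusted p = 9.10e-06) and gh18-6 (1.21, adjusted p = 3.28e-07) by that table, while gh18-8 (-0.999) and gh18-7 (-0.54) fell. In ∆set-7 over wild type 3 rose, gh18-4 (1.25), chit-1 (0.95) and gh18-5 (0.78), and gh18-9 fell with -1.15 (list median 0.14). In that deposited table of the authors 10.3% of all tested genes were higher and 11.6% lower in ∆set-7. Counts among 9 genes are not read as a property of the list. The gh18-5 and gh18-4 genes were called up in both mutants over the shared wild-type libraries. For gh18-4 the log2 fold in ∆epr-1 was 1.05 (adjusted p = 0.00853) by the authors' deposited table. The gh18-9 gene was 1.48 higher in ∆epr-1 than in ∆set-7 (adjusted p = 1.08e-10) in the authors' deposited table.

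Remodelling and hydrolysis of beta-1,3-glucan was covered by 6 genes, of which 1 rose and 3 fell in ∆epr-1 over wild type (list median -0.57), and 0 rose and 3 fell in ∆set-7 over wild type (list median -0.64), in the authors' deposited tables, where 24.5% of all tested genes were lower in ∆epr-1 and 11.6% in ∆set-7. The 3 that fell were the same in both, the glucanosyltransferase genes gel-1, gel-3 and gel-4. Their log2 folds were -1.13, -1.75 and -2.83 in ∆epr-1 and -1.17, -1.38 and -2.53 in ∆set-7, in the authors' deposited tables. Both comparisons share the wild-type libraries, so a high wild-type value would lower both folds of a gene. Another gel gene of the list, gel-5, was called in neither, with -0.016 in ∆epr-1 and -0.11 in ∆set-7, in the authors' deposited tables. Between the mutants gel-3 alone of the 6 was called, with -0.37 in ∆epr-1 over ∆set-7 (adjusted p = 0.00322) by the authors' deposited table. The family 81 endoglucanase gene gh81-1 had 36 and 51 reads in ∆epr-1 and rose there, with 1.28 (adjusted p = 0.0225) by the authors' deposited table. Genes for alpha-1,3-glucan synthases had no symbol in the annotation used and were not analysed here.

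Of 14 genes of cell wall integrity signalling, 2 rose and 4 fell in ∆epr-1 over wild type (list median 0.09). In ∆set-7 over wild type 0 rose and 4 fell (list median -0.06), both in the authors' deposited tables. Over all tested genes 23.3% rose and 24.5% fell in ∆epr-1, and 10.3% rose and 11.6% fell in ∆set-7. Most genes of this list had means of at least 1000 normalized counts. At such means 71.2% of all tested genes were called in ∆epr-1 and 36.6% in ∆set-7. With 14 genes the counts are not read as a property of the list. Among the 14 the wall sensor gene wsc-1 fell in both mutants over the shared wild-type libraries. Its folds were -0.999 in ∆epr-1 and -1.09 in ∆set-7, in the authors' deposited tables. The MAP kinase kinase gene mek-1 fell in ∆set-7 with -0.71 (adjusted p = 2.63e-07), and rho-2 with -0.64 (adjusted p = 4.72e-05), in the authors' deposited table. Both were higher in ∆epr-1 than in ∆set-7, mek-1 by 0.60 and rho-2 by 0.84, in the authors' deposited table. In ∆epr-1 the exchange factor genes rgf3 (0.66) and rgf1 (0.29) rose and rho-3 (-0.45) was among those that fell, in the authors' deposited table. The kinase genes pkc, mik-1 and mak-1 were called in no comparison.

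Of the genes listed for vesicle transport to the tip, 5 had a symbol in the annotation, with list medians of 0.28 in ∆epr-1 and -0.04 in ∆set-7. In ∆epr-1 over wild type 3 of them rose, the exocyst gene sec5 (0.49), the kinesin gene kin-1 (0.35) and the myosin gene myo2 (0.28), in the authors' deposited table. In ∆set-7 over wild type kin-1 rose (0.42) and myo2 fell (-0.36), by the authors' deposited table. All of these changes were below 2-fold. Over the 35 genes of these 4 lists, 10 rose and 9 fell in ∆epr-1 over wild type, 4 rose and 9 fell in ∆set-7 over wild type, and 10 were higher and 5 lower in ∆epr-1 than in ∆set-7, in the authors' deposited tables. With 47.8%, 21.8% and 45.9% of all tested genes called in those comparisons, these counts are not read as a property of the lists.

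**Figure D5:**
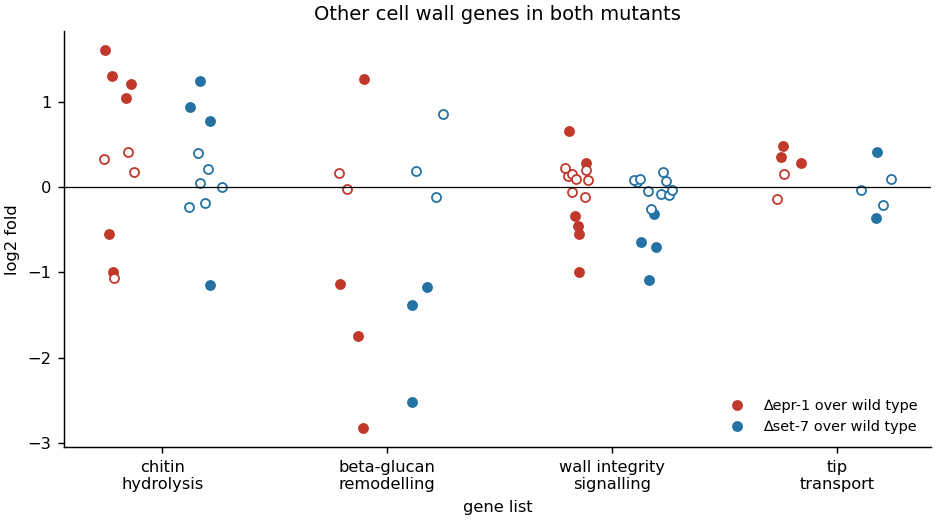
Log2 folds of 35 other cell wall genes in 4 lists, for ∆epr-1 over wild type (red) and ∆set-7 over wild type (blue); filled points passed an adjusted p below 0.05 and points are spread sideways for legibility. The genes gel-1, gel-3 and gel-4 lie at -1.13 or below in both mutants, while gel-5 lies near 0. The other lists hold called genes on both sides of 0 in at least 1 mutant.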

How the data were processed

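Signal values were gene counts that the authors had divided by DESeq2 size factors, per the submitters' processing notes and the file headers. The sources used here name no aligner for the RNA libraries, no strand setting and no genome build. Division by 1 step per column gave whole reads for 100% of genes (tolerance 0.01), with size factors of 1.22 and 1.18. The 4 entries that name no gene held 19.1% and 17.5% of the column totals and were left out. No count test was run on these reads, since ∆epr-1 was the only genotype with usable columns, and 4 columns of per-sample values were not used here. The authors' deposited tables hold log2 folds with standard errors, a score (the Wald statistic of DESeq2) and p-values with their Benjamini-Hochberg adjustment, per the file headers. Signs were turned to mutant over wild type and to ∆epr-1 over ∆set-7. No source used here says whether folds were moderated. Genes with almost no reads had folds near 0 with small standard errors. NCU00009, with 0 and 1 reads, had 0.006 (SE 0.308) in ∆epr-1 over wild type. Moderated folds behave this way, so low-count folds, such as those of chs-6 and NCU04351, may be drawn toward 0. For the 8 genes, the mean over all 6 libraries rebuilt from ∆epr-1 values and the deposited folds was 0.987 to 1.01 times the deposited mean. That check says little about genes with few reads. Intervals are the fold plus or minus 1.96 standard errors. The labels do not tie the replicates to separate experiments, so p-values cover only how far these samples differ, which may be technical.

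The threshold was 0.05 on the deposited adjusted p. Genes to name were drawn from all 8 genes, their flanking genes, the 3 most similar genes for chs-5 and fks, and up to 3 called genes per list, direction and comparison. The genes gh18-4 (in ∆epr-1), gel-5, pkc, mik-1, mak-1, ccg-13 and NCU00009 are given beside these and were chosen after their values were seen. All genes and lists were chosen with earlier results of these data known. Values of 1 gene of the lists are not reported here. List symbols were matched to RefSeq (NC12) with or without hyphens, and 9729 of 9730 locus tags were in it. Levels used RefSeq gene length, since the planned coding length was not used here. When a ∆epr-1 library was left out, the log2 ratio of the other one to their mean (pseudocount 0.5) was added to the fold, and the share of the variance due to ∆epr-1, derived from the 3 standard errors, was doubled, so the spread is that of the deposited fit. These steps were tested on simulated data. Python 3.11.15, pandas 2.3.3 and scipy 1.17.1 were used. The 14 ChIP-seq and DamID samples were not analysed here.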

Additional observations from a re-analysis of the deposited data

How the results depend on the processing

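Alternatives tried for the folds were a stricter adjusted p (0.01), a minimum absolute log2 fold of 1, a minimum mean of 50 normalized counts (which leaves out chs-6), no low-count filter, recentred folds, and either ∆epr-1 library left out. No paired analysis was possible because the labels give no replicate numbers shared between genotypes. Among the synthase genes, calls or signs changed with the minimum fold and with a library left out, and with none of the other alternatives. At the minimum fold, called genes numbered 1581 in ∆epr-1 over wild type, 524 in ∆set-7 over wild type and 1694 in ∆epr-1 over ∆set-7. Synthase genes called were then 3, 2 and 2, and other cell wall genes 8, 6 and 3. The calls of chs-1 (0.67) and chs-3 (0.95) in ∆epr-1 over wild type, of fks (-0.94) in ∆set-7 over wild type, and of chs-1 (0.59), chs-5 (-0.72), chs-7 (-0.50) and fks (0.99) in the direct contrast ended there by their size. With a library left out, chs-4 ran from -0.48 to -0.19 and fks from -0.032 to 0.13 in ∆epr-1 over wild type, and chs-4 from -0.13 to 0.16 in the direct contrast. The cause was not tested. Shares of all reads in genes keep the order of levels per kilobase within a library by construction, so they were no check of that order. Low depth limits chs-6 most.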
